A study of Mus musculus with 6 samples.

Results

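The 10 genes described here code for lipid and steroid enzymes and a droplet protein, grouped under the sebaceous glands, the oil glands of the skin. Several are also known from other tissues, as given gene by gene below. These 10 genes were followed in cultured mouse mammary luminal cells with and without added EFNA3 protein. They were taken by symbol from the expression table: Far2, Awat2, Acsbg1, Elovl3, Elovl4, Scd3, Fa2h, Cyp2b19, Hsd3b6 and Cidea, which made 10 of its 19739 genes. The list was drawn up with the control levels and the group differences of this table in view. Those values are therefore given as a description, with no test.

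The luminal cells, from WT mammary glands, had been purified by flow cytometry and grown with serum, EGF, FGF2, heparin and the kinase inhibitor Y-27632. The 3 EFNA3 libraries came from cells given ephrin-A3 protein, a membrane-anchored ligand of Eph receptors, at 1 µg/ml for 24 hours. The 3 control libraries came from cells given 0 µg/ml, and 12 hours without serum preceded the treatment, which was itself in serum-free medium. Strain, age, the number of animals and whether replicates were separate cultures are not stated in the labels, so the spread between replicates may be technical.

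Sebocytes fill with lipid and burst to release it as sebum, which in mice holds wax esters, triglycerides and sterol esters. Long acyl chains are activated to acyl-CoA, elongated, desaturated or hydroxylated, and part of them are reduced to fatty alcohols and joined to another acyl chain as a wax ester. Mammary glands, like sebaceous glands, are skin appendages, and their luminal cells make and secrete milk fat from cytosolic lipid droplets.

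Values were log2 expression, brought by the authors to 1 common distribution with a median of 8.10 in every library. Depth is unknown, and a change common to every gene would not show. Of the luminal markers checked, all 10 passed the filter on low values, and the highest, Epcam, averaged 14.74 ± 0.14 in EFNA3 libraries and 14.57 ± 0.05 in controls (log2, SD, n = 3 each). Of 9 basal and myoepithelial markers checked, 7 passed the filter. The basal keratin gene Krt14 stood at 16.38 ± 0.05 in EFNA3 libraries and 16.26 ± 0.08 in controls. Krt5 averaged 14.944 in EFNA3 libraries and 14.915 in controls, and Trp63 11.74 and 11.79, so basal-type genes were also well expressed. The contractile gene Myh11 stood at 1.22 ± 0.43 in EFNA3 libraries and 2.65 ± 0.87 in controls, under the filter, as was Cnn1. EFNA3 replicate 1 stood apart by transcript length: across 15972 genes, which are not independent, its deviation from the 6-library mean had a Spearman correlation of -0.51 with length, where the other libraries lay between 0.02 and 0.35. The group difference had a Spearman correlation with length of -0.44 over all libraries and -0.26 without EFNA3 replicate 1. Leaving that library out thus lessened the length trend but did not remove it. Results are also given without EFNA3 replicate 1 and, for some genes, with a length and GC correction.

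Most of the genes stood lower with EFNA3. Group means were lower for 9 of the 10 and higher for Awat2, with a median log2 difference of -0.27, where all tested genes had a median of 0.00. Cyp2b19 and Hsd3b6 had the largest differences, at -0.73 and -0.66, followed by Far2 at -0.43 and Fa2h at -0.34. In 5 genes, Far2, Acsbg1, Fa2h, Cyp2b19 and Hsd3b6, every EFNA3 library lay below every control. Of 16394 tested genes 7.45% did so, and since the list was chosen on this contrast, nothing is read from these shares. All 10 genes passed the filter on low values. By limma with Benjamini-Hochberg adjustment 0 of the 10 were called, against 0% of all genes (0 genes, with 1104, or 6.73%, at an unadjusted p under 0.05); limma without the mean-variance trend also called 0. In bulk libraries, fewer cells expressing a gene and less RNA per cell cannot be told apart.

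**Figure D1:**
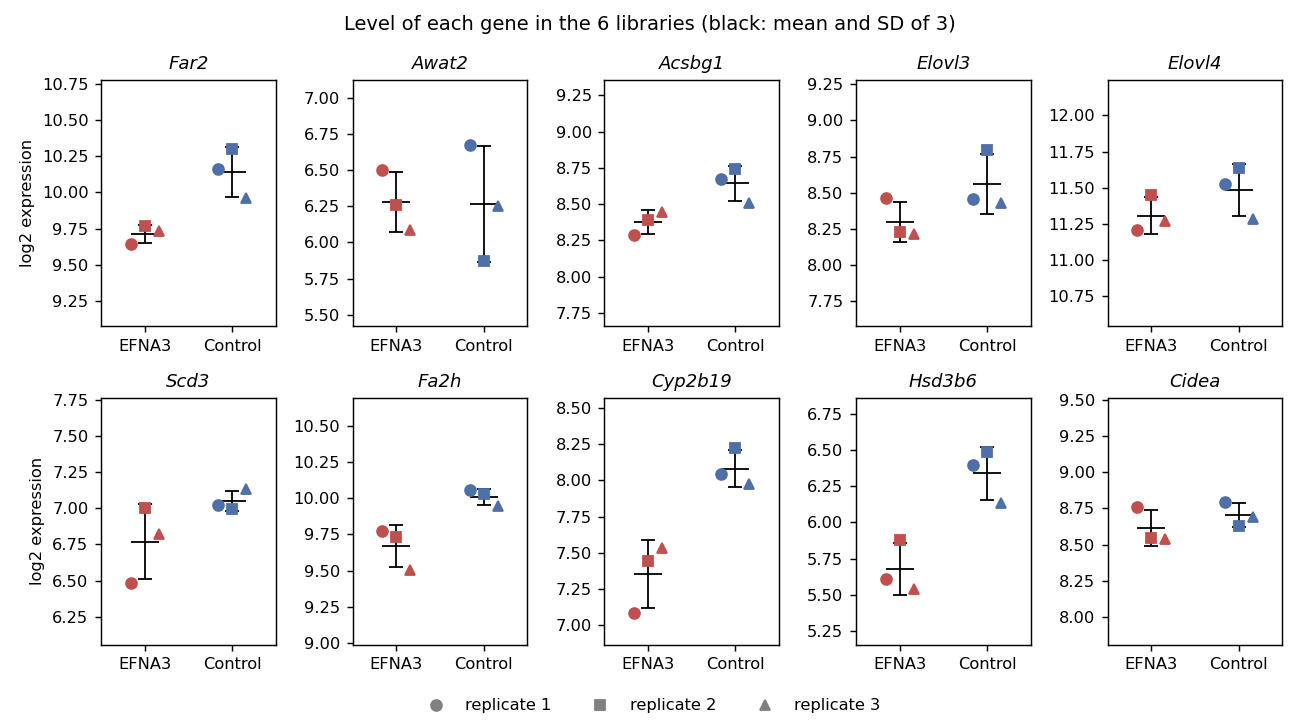
Log2 expression of each gene (vertical axes, all spanning the same range) in the EFNA3 and control libraries, with the symbol giving the replicate and black lines the mean and SD of 3. The groups do not overlap for Far2, Acsbg1, Fa2h, Cyp2b19 and Hsd3b6, while for Awat2 the controls spread more widely (SD 0.40) than the group means differ.

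Far2 and Awat2 carry out successive steps of wax ester synthesis. Far2 is a fatty acyl-CoA reductase, which makes the fatty alcohol. It stood at 9.64, 9.76 and 9.73 in EFNA3 replicates 1, 2 and 3, against 10.16, 10.30 and 9.96 in control replicates 1, 2 and 3 (log2 expression). The EFNA3 libraries lay close together (SD 0.06) and all below the lowest control, for a log2 difference of -0.43 (SE 0.10), or 0.744-fold on the linear scale. Awat2 is an acyltransferase that joins the alcohol to an acyl chain and is also known from the meibomian glands of the eyelid. It stood at 6.50, 6.26 and 6.08 in EFNA3 replicates 1, 2 and 3, against 6.67, 5.87 and 6.25 in the controls. The 2 groups overlapped fully, the difference was 0.02 (SE 0.23), and its sign depended on the libraries used, from -0.18 without control replicate 2 to 0.22 without control replicate 1.

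Acsbg1 is an acyl-CoA synthetase of the bubblegum family, which activates long and very long chain fatty acids. It stood at 8.28, 8.39 and 8.45 in EFNA3 replicates 1, 2 and 3, against 8.68, 8.74 and 8.51 in the controls. The groups did not overlap, but the gap between EFNA3 replicate 3 and control replicate 3 was 0.061 on the log2 scale. The difference of means was -0.27 (SE 0.10).

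Elovl3 and Elovl4 lengthen fatty acyl chains. Elovl3, whose loss in mice disturbs the lipids of the hair coat, stood at 8.46, 8.23 and 8.21 in EFNA3 replicates 1, 2 and 3, against 8.46, 8.80 and 8.43 in the controls. The groups overlapped only through EFNA3 replicate 1, which lay 0.033 above the lowest control, and control replicate 2 stood above all other libraries. The difference was -0.26 (SE 0.13), -0.34 without EFNA3 replicate 1 and -0.14 without control replicate 2. Elovl4, which makes very long chain fatty acids of the skin barrier and the retina, stood at 11.21, 11.45 and 11.27 in EFNA3 libraries, against 11.53, 11.64 and 11.29 in controls. Here EFNA3 replicate 2 lay above control replicate 3, so the groups overlapped. The difference was -0.17 (SE 0.10), with -0.10 without control replicate 2 and -0.27 without control replicate 3.

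Scd3 is a stearoyl-CoA desaturase, which puts a double bond into a saturated chain, and in mice is known from sebaceous glands. It stood at 6.49, 7.003 and 6.82 in EFNA3 replicates 1, 2 and 3, against 7.02, 6.997 and 7.13 in the controls. EFNA3 replicate 2 exceeded the lowest control by only 0.006, and EFNA3 replicate 1 lay far below the rest. Without that library the difference of -0.28 (SE 0.16) was -0.14.

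Fa2h and Cyp2b19 add oxygen to fatty acids. Fa2h hydroxylates the fatty acids of sphingolipids, in sebaceous glands and in myelin. It stood at 9.78, 9.73 and 9.50 in EFNA3 replicates 1, 2 and 3, against 10.05, 10.03 and 9.95 in the controls, which were the tightest of the 10 genes (SD 0.06). All EFNA3 libraries lay below all controls, with a difference of -0.34 (SE 0.09). Cyp2b19, a cytochrome P450 that makes arachidonic acid epoxides in mouse keratinocytes, stood at 7.09, 7.44 and 7.53 in EFNA3 libraries, against 8.05, 8.22 and 7.97 in controls. It had the widest gap, 0.44 between the highest EFNA3 library and the lowest control. Its difference was -0.73 (SE 0.15), or 0.604-fold, and -0.59 without EFNA3 replicate 1, its lowest library.

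Hsd3b6 is a hydroxysteroid dehydrogenase, a step in the synthesis of steroid hormones, with known expression in the mouse adrenal gland and in steroid-making cells of the testis. It stood at 5.61, 5.88 and 5.54 in EFNA3 replicates 1, 2 and 3, against 6.39, 6.49 and 6.14 in the controls. All EFNA3 libraries lay below all controls, by a difference of -0.66 (SE 0.19), or 0.632-fold. Cidea coats lipid droplets, promotes their growth and takes part in milk fat secretion in the mouse. It stood at 8.76, 8.55 and 8.54 in EFNA3 replicates 1, 2 and 3, against 8.79, 8.63 and 8.69 in the controls. EFNA3 replicate 1 lay among the controls, the groups overlapped, and the difference was -0.09 (SE 0.10), or -0.16 without that library.

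**Figure D2:**
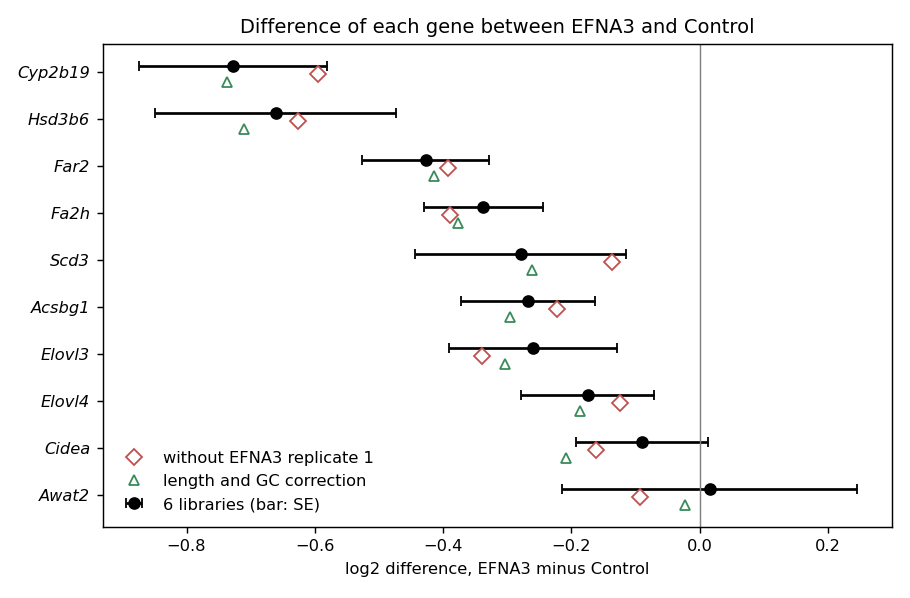
Log2 difference of each gene, EFNA3 minus Control (horizontal axis), over 6 libraries with its SE (black), without EFNA3 replicate 1 (diamonds) and with transcript length and GC share corrected for (triangles). Cyp2b19, at -0.73, and Hsd3b6, at -0.66, stand lowest under each of these settings, and Awat2, at 0.02 with 6 libraries, has the widest SE.

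The libraries did not contribute alike. Control replicate 2 was the highest of the 6 libraries for 6 of the 10 genes, and control replicate 3 was the lowest control for 7. EFNA3 replicate 1 was the lowest of the 6 for 5 genes and EFNA3 replicate 3 for 4. The median deviation of the 10 genes from their own 6-library means was -0.21, -0.11 and -0.19 in EFNA3 replicates 1, 2 and 3, against 0.19, 0.24 and 0.03 in control replicates 1, 2 and 3. Without EFNA3 replicate 1 all 10 group means were lower with EFNA3, where 50.2% of all tested genes were. In that setting 7 genes had no overlap, Elovl3 and Cidea being added to the 5 named above, where 9.2% of all tested genes lay lower without overlap. With each other library left out in turn, 5 to 7 of the 10 had no overlap, against 11.1% to 16.8% of tested genes. As the list was chosen on this contrast, nothing is read from these counts. The median length of the longest annotated transcripts was 2616 nt for the 10 genes and 3015 nt for tested genes, and after the length and GC correction the 10 differences lay between -0.74 and -0.02.

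Per kilobase of the longest annotated transcript, the genes covered a wide range of control levels. Elovl4 was highest, at 9.90 ± 0.18 (log2 per kb, SD, n = 3 controls), above 88.5% of tested genes with a known length. Fa2h at 8.69, Cidea at 8.55 and Far2 at 8.34 followed, and each of these overlapped its neighbour in the order across the 3 controls. Elovl3 at 7.65, Acsbg1 at 7.12 and Cyp2b19 at 6.63 came next, each apart from its neighbours. Hsd3b6 at 5.49, Awat2 at 5.28 and Scd3 at 5.25 were lowest and overlapped one another in turn. In EFNA3 libraries Cidea stood above Fa2h, at 8.46 and 8.35, and Hsd3b6 was last, at 4.83. With the median length over annotated transcripts in place of the longest, Acsbg1 moved to rank 2 of 10, while Elovl4 remained first.

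The place of each gene within its family varied. Far2 held 12.8% of the summed per-kilobase control level of the fatty acyl-CoA reductases, the rest being Far1, whose difference was -0.05 (SE 0.07). Cidea held 98.3% against Cidec, the droplet protein of white fat. Awat2 stood at 5.28 per kb against 2.38 for Awat1, which did not pass the filter. Among 7 elongases Elovl4 held 19.1% and Elovl3 4.02%; Elovl6, Elovl1 and Elovl5 were the other abundant ones. Elovl6 was lower by -0.29 (SE 0.10) and -0.18 without EFNA3 replicate 1, while Elovl1 and Elovl5 differed by 0.04 (SE 0.08) and 0.01 (SE 0.07).

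Scd3 was a trace member of its family. It held 0.0669% of the summed per-kilobase control level of the 4 Scd genes, against 91.5% for Scd1. Scd1 ranked 1 or 2 of all genes in every library and took only 2 distinct values, 18.11 and 17.59, so its value followed its rank at the top of the common distribution, and its difference was 0.00. Of the 50-base words of the Scd3 transcript 4.85% also occur in Scd1 transcripts, and how far Scd1 reads entered the Scd3 value was not tested. Hsd3b6 shares 16% of its words with other genes, mainly Hsd3b2 and Hsd3b3, and Cyp2b19 shares 2.45%, mainly with Cyp2b23. Those relatives had no value among the genes used here. For Far2, 11.4% of exonic bases also lie in Ergic2 on the other strand. The library kit keeps strand, but the strand setting of the counting is not given. Ergic2 itself differed by 0.03 (SE 0.07).

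**Figure D3:**
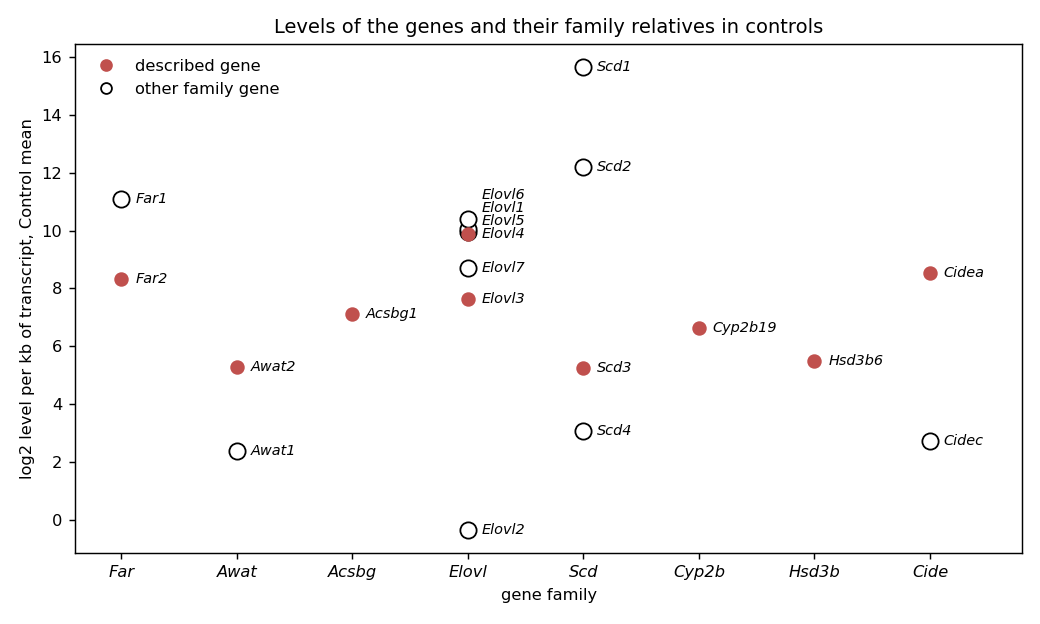
Mean log2 level per kilobase of transcript in the 3 controls (vertical axis) for the described genes (filled) and family relatives with a value (open), by gene family (horizontal axis). Scd3 at 5.25 lies far below Scd1 at 15.66, while Cidea at 8.55 lies above Cidec at 2.72.

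Promoters of the genes with no overlap between groups, except Fa2h, are shown so that the starts of genes that all stood lower with EFNA3 can be compared. For Fa2h, Elovl3 and Cidea no promoter was available. RefSeq gave a promoter for 7 of the 10 genes (build GRCm38.p6, older than the mm39 build of the expression table). The 250 bases before the start, 5′ to 3′ on the gene's strand, are printed for Cyp2b19 (chr7:26756892-26757141 on the plus strand), Hsd3b6 (chr3:98814444-98814693 on the minus strand), Acsbg1 (chr9:54661886-54662135 on the minus strand) and Far2 (chr6:148047166-148047415 on the plus strand), with capitals marking AGGTCA, the half-site of nuclear receptors.
Cyp2b19: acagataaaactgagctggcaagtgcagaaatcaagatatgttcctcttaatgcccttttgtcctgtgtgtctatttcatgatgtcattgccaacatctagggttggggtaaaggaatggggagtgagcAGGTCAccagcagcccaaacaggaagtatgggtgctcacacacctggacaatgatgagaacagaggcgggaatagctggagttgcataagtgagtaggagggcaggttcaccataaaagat
Hsd3b6: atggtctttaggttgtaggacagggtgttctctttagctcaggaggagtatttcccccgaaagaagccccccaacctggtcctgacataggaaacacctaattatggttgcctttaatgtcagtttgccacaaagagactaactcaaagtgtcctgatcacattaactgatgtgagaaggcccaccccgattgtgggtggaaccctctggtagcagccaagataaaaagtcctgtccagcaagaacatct
Acsbg1: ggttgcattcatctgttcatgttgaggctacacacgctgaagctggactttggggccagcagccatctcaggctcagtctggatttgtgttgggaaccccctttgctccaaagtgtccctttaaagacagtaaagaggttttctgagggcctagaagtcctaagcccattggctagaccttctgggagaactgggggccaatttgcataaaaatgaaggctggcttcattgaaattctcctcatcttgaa
Far2: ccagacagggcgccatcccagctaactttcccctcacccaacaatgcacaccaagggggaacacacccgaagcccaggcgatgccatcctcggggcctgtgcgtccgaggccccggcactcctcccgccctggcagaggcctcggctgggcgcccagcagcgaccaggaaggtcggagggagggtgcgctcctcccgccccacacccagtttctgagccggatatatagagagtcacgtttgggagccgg
The Far2 window was the richest of the 4 in G and C, at 67.2%, with 17 CpG dinucleotides, where Cyp2b19, Hsd3b6 and Acsbg1 had 46.8%, 47.2% and 48.4% with 1 or 2 each; the median of 32851 promoters was 52.4%. AGGTCA on either strand lay in the Cyp2b19 window, at position -121 relative to the start, and in 14% of all windows of that length. The full PPAR repeat AGGTCANAGGTCA, which contains that half-site, was in none of the 7 genes' windows and in 0.0335% of all. Nor did they hold the sterol element TCACNCCAC (1.05% of all), the E-box CACGTG (6.02%) or the TATA box TATAAA (12.4%). The AP-2 site GCCNNNGGC, in 13.7% of all, was found in the Elovl4 window alone among the 7. All motifs were searched on both strands, and these matches describe letters only.

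Lists of genes around the same pathways, none of them in the set, had medians closer to that of all tested genes. The 10 genes were chosen with these values known and left out of the lists, so nothing is read from that. Lower with no overlap were 4 of 14 wax and glycerolipid, 4 of 22 sebocyte, 3 of 27 elongation and 2 of 15 transport genes. So were 1 of 7 desaturase, 0 of 9 droplet and 4 of 17 PPAR-responsive genes, and 7.45% of all tested genes. Higher with no overlap, in the same order, were 0, 2, 2, 1, 0, 1 and 0. Over all tested genes 49.2% had a lower mean with EFNA3, the median difference was 0.00, and no gene passed limma. Of 14 tested genes for wax ester, glycerolipid and sterol ester synthesis, 12 were lower and 2 higher, with a median of -0.06. The lowest were the lipin gene Lpin1, at -0.34 (SE 0.13), and the sterol acyltransferase gene Soat1, at -0.28 (SE 0.07). Soat1 stood at 11.24, 11.20 and 11.09 in EFNA3 replicates 1, 2 and 3, against 11.54, 11.44 and 11.39 in the controls, with no overlap. The highest were the triglyceride synthesis gene Dgat2 at 0.08 (SE 0.08) and the lipase gene Pnpla2 at 0.01 (SE 0.09). Without EFNA3 replicate 1, Lpin1 differed by -0.17 and Soat1 by -0.31; with the length and GC correction Soat1 differed by -0.10.

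Among regulators and other genes of sebocytes, 22 were tested, with 14 lower, 7 higher, Scd1 at 0.00 and a median of -0.04. The regulator Pparg, a nuclear receptor that drives sebocyte and fat cell differentiation, stood at 9.58 in EFNA3 libraries and 9.69 in controls on average, a difference of -0.11 (SE 0.10) with overlap. Fabp4, a fatty acid binding protein, and the fatty acid synthase gene Fasn were lowest, at -0.35 (SE 0.18) and -0.34 (SE 0.14). The oxysterol receptor gene Nr1h3 was among the highest, at 0.25 (SE 0.14). EFNA3 replicate 1 weighed on these values: without it Fasn differed by -0.15, Fabp4 by -0.53, Nr1h3 by 0.13 and Pparg by -0.20, with the remaining 2 EFNA3 values of Pparg below all 3 controls.

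Of 27 tested genes for very long chain elongation and ceramide synthesis, 10 were lower and 17 higher, with a median of 0.02. The desaturase and hydroxylase gene Degs2 was lowest at -1.64 (SE 0.49), but it was a low gene, at 1.32, 2.53 and 2.29 in EFNA3 replicates 1, 2 and 3, against 3.35, 3.77 and 3.97 in the controls. Degs2 passed the filter on low values, at 3.32, through the controls alone. Lower values with EFNA3 were thus built into its selection, and nothing is read from its difference. The ceramide synthase gene Cers4 differed by -0.36 (SE 0.18), or -0.19 without EFNA3 replicate 1. The dehydratase gene Hacd1 was highest, at 0.60 (SE 0.18), followed by the lipid transporter gene Abca12 at 0.44 (SE 0.29). Of 7 desaturase genes 4 were lower and 2 higher, with a median of -0.06, and the extremes were Fads6 at -0.17 (SE 0.07), Scd2 at -0.07 (SE 0.08), Fads3 at 0.01 (SE 0.06) and Scd4 at 0.07 (SE 0.41).

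Of 15 tested acyl-CoA synthetase and fatty acid transport genes 9 were lower, with a median of -0.02. The fatty acid uptake gene Cd36 was lowest, at 8.70, 8.72 and 8.91 in EFNA3 replicates 1, 2 and 3, against 9.51, 9.31 and 9.04 in the controls, with no overlap and a difference of -0.51 (SE 0.13). It also ranked second lowest among 17 PPAR-responsive genes, of which 12 were lower, with a median of -0.03. The lowest there was Cpt1b, a low and variable gene, at -0.77 (SE 0.61), and the highest were the acyl-CoA dehydrogenase genes Acadm at 0.13 (SE 0.09) and Acadl at 0.09 (SE 0.09). Fabp4 was the second lowest of the transport genes, and the highest were the transporter gene Slc27a6 at 0.33 (SE 0.46) and the acyl-CoA binding protein gene Dbi at 0.32 (SE 0.14), which was 0.15 without EFNA3 replicate 1. Of 9 lipid droplet genes 5 were lower, with Plin1 at -0.87 (SE 0.67), Plin4 at -0.23 (SE 0.15), the seipin gene Bscl2 at 0.12 (SE 0.09) and Hilpda at 0.31 (SE 0.12). Without EFNA3 replicate 1, Cpt1b differed by -0.40, Plin1 by -0.33, Acadm by 0.03, Acadl by 0.00 and Bscl2 by 0.06. Besides Hsd3b6 the tested dehydrogenase of its kind was Nsdhl, of sterol synthesis, at -0.13 (SE 0.11).

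**Figure D4:**
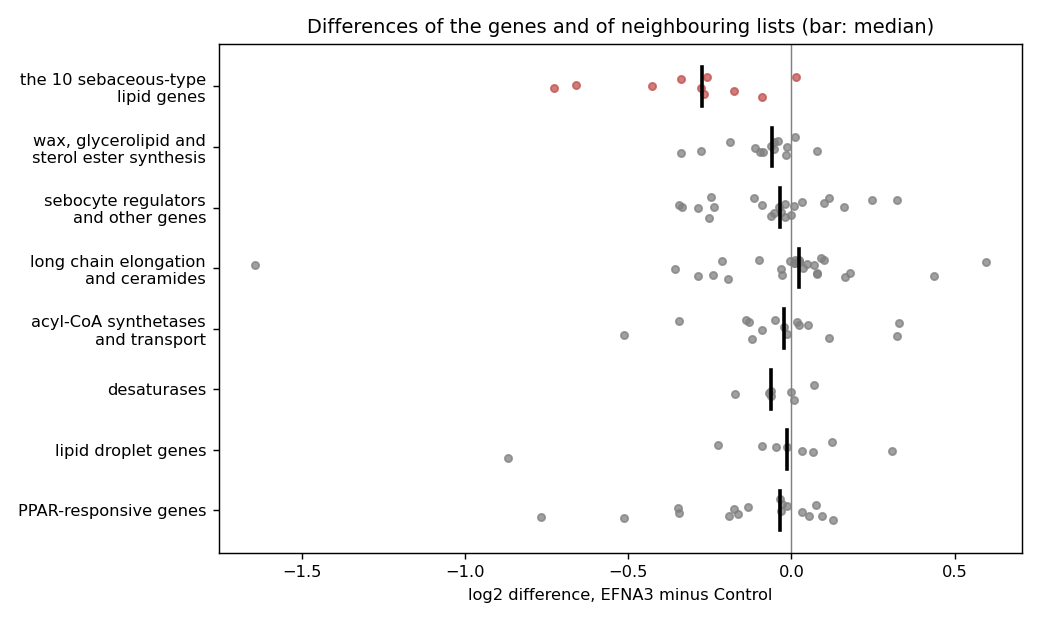
Log2 difference, EFNA3 minus Control, of the 10 genes (red) and of the tested genes of 7 neighbouring lists (grey), with a bar at each median. The median of the 10 genes, chosen with these values known, lies at -0.27 and those of the lists between -0.06 and 0.02.

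Markers of cells that could carry these genes were looked at beside the result. Of 8 sebocyte identity genes outside the set, 6 had a value and 4 passed the filter. Dgat2l6 and Gata6 had no value. The sebaceous duct keratin gene Krt79 was the highest, at 10.14, 10.05 and 10.04 in EFNA3 replicates 1, 2 and 3, against 10.47, 10.27 and 10.25 in the controls, with no overlap and a difference of -0.25 (SE 0.09). The melanocortin receptor gene Mc5r was the lowest and ran from 2.36 to 3.38 in EFNA3 libraries and from 1.11 to 3.59 in controls. The log2 of the summed level of these 6 genes lay between 10.93 and 11.09 in EFNA3 libraries and between 11.10 and 11.24 in controls. That sum was made up mostly of Krt79 and Pparg. Of the other genes, the repressor gene Prdm1 differed by 0.10 (SE 0.16) and the lipid droplet gene Plin5 by -0.09 (SE 0.24), and Awat1 and Mc5r, under the filter, by 0.17 and 0.18, all with overlap. The part of these cells in the result was not tested.

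Epidermal differentiation markers, 6 of 10 with a value, had a log2 summed level between 11.21 and 11.37 in EFNA3 libraries and between 11.26 and 11.35 in controls. Sbsn led them, with a mean of 11.17 in EFNA3 libraries and 11.18 in controls, and the cornified envelope gene Lor was lowest, at 4.03 in EFNA3 libraries and 3.66 in controls. Adipocyte markers, 7 of 9 with a value, had a log2 sum between 9.67 and 10.07 in EFNA3 libraries and between 10.01 and 10.41 in controls. The lipoprotein lipase gene Lpl led them, with a difference of -0.35 (SE 0.13). The brown fat gene Ucp1, whose cells also express Cidea, averaged 1.72 in EFNA3 libraries and 1.59 in controls and did not pass the filter. Lpl and Fabp4, at -0.35 (SE 0.18), made up most of that sum, and the low gene Plin1 differed by -0.87 (SE 0.67). Lep, Cfd, Ucp1 and Cidec, all low genes, had higher means with EFNA3, from 0.03 for Cidec to 0.64 for Lep, with overlap. Lep and Cfd were under the filter, and Adipoq and Retn had no value. The adipocyte sums overlapped between groups only through EFNA3 replicate 1, at 10.07. EFNA3 replicates 2 and 3, at 9.83 and 9.67, lay below every control. Without EFNA3 replicate 1, Lpl differed by -0.43, Fabp4 by -0.53, Plin1 by -0.33 and Cidec by -0.35. The part of adipocytes in the result was not tested.

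Hair follicle markers, 5 of 9 with a value, had a log2 sum between 11.21 and 11.50 in EFNA3 libraries and between 11.41 and 11.54 in controls, led by Lgr5, with Krt27 lowest and under the filter. Fibroblast markers, 5 of 7 with a value, lay between 10.63 and 10.78 in EFNA3 libraries and between 10.75 and 10.79 in controls, with Pdgfra highest and Col3a1 lowest. Pdgfra, which weighed most in that sum, differed by -0.22 (SE 0.10) with no overlap, whereas the other 4 genes had higher means with EFNA3, up to 0.60 (SE 0.42) for Col3a1, with overlap, and the median of the 5 was 0.29. Without EFNA3 replicate 1, Pdgfra differed by -0.12 and Col3a1 by 0.28. With the length and GC correction Pdgfra differed by -0.06 and Col3a1 by 0.71. Immune markers, 3 of 6 with a value, lay between 7.35 and 7.57 in EFNA3 libraries and between 7.33 and 7.69 in controls, with Cd68 highest and Cd74 lowest. These sums overlapped between groups, as did those of luminal markers, between 16.64 and 16.84 in EFNA3 libraries and between 16.57 and 16.65 in controls, with Esr1 lowest. Basal markers also overlapped, between 16.99 and 17.06 in EFNA3 libraries and between 16.90 and 16.99 in controls. Endothelial and pericyte markers, led by Pecam1 with Cdh5 under the filter, did not overlap, between 8.87 and 8.92 in EFNA3 libraries and between 8.75 and 8.83 in controls. Among them the pericyte gene Rgs5 differed by 0.37 (SE 0.15), higher with no overlap, and Pecam1 by -0.02 (SE 0.10). The endothelial receptor gene Kdr, under the filter, differed by -1.08, lower with no overlap, and Cdh5 by -0.91 with overlap.

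The 5 tested genes whose pattern over the 6 libraries was most like the mean of the 10 were Creb3l4, Fbln1, Aadacl3, Ppp1r2-ps6 and 2310043M15Rik, with Pearson r between 0.981 and 0.993 over 6 libraries. All 6 points come from the same libraries and carry the group difference, and 99 genes had an r above 0.9. Creb3l4, a membrane-bound transcription factor of the CREB3 family, differed by -0.18 and Fbln1, the matrix protein fibulin, by -0.31; the last of the 5 were low genes, at 3.91 and 4.05 in controls.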

How the data were processed

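RNA was measured in 6 libraries, 3 per group, assigned by their titles, with table columns matched by the description labels. The submitters' processing notes name build mm39 and the tools Trim Galore, Subread and featureCounts. Their versions, the annotation, the strand setting and the way the authors reached log2 values are not stated there. The deposited log2 values lay between -0.79 and 18.11 and were not whole; the base is inferred. Their sorted columns differed by at most 0.00302, so the table held 1 common distribution. Depth is unknown and no counting interval can be given.

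Genes at 3.32 or more (10 on a linear scale) in 3 or more of the 6 libraries were tested, 16394 in all, with limma 3.58.1 in R 4.3.3, a mean-variance trend, no block and Benjamini-Hochberg adjustment at 0.05; the SE is limma's. The fit was tested on simulated data. An exact permutation test of 3 against 3 cannot go below 0.1. Transcript lengths and GC shares came from GENCODE M21 (an earlier build), by symbol, for 97.4% of tested genes. The 10 genes and all lists were chosen with earlier results of these data known. Named were the 10 genes, their family relatives, the 2 highest and 2 lowest differences of each neighbouring list, the highest and lowest marker of each marker list, and the 5 most similar genes; 1 gene of a neighbouring list is not reported here; Pparg, Prdm1, Plin5, Awat1, Rgs5, Kdr, and the values by library of Soat1, Cd36, Degs2 and Krt79, were chosen after their values were seen. Alternatives covered the filter, pseudocount, scaling, variance model, library weights, replicate block, length and GC, and leaving out each library.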

Additional observations from a re-analysis of the deposited data

How the results depend on the processing

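The median difference of the 10 genes was -0.27 with all libraries and between -0.33 and -0.26 with each library left out in turn; after correction for length and GC it was -0.30, and with that correction and EFNA3 replicate 1 left out, a setting chosen after seeing the data, -0.29. Of 160 recomputed differences of single genes, 6 had another sign than with all libraries, each of them for Awat2; Cidea moved by more than its spread between replicates, to -0.21, under both length and GC settings. The count of genes called by limma over all genes was 0 under every alternative listed except 1. Whether libraries with the same replicate number were paired is not stated in the labels. For the numbers of the titles the correlations of deviations from group means were -0.11, 0.03 and -0.32 for replicates 1, 2 and 3. These cannot settle the pairing, because the deviations of each gene sum to 0 within a group of 3. With a replicate block by the titles 0 genes were called. With a replicate block by description numbers, which leaves 1 residual degree of freedom, 71 genes were called, 53 higher and 18 lower, with none of the 10 among them. Only replicates 1 and 3 of the titles share a description number between groups. The libraries of replicate 2 do not, so they form no pair in that fit. Centring each library on its median changed no value, since the medians were equal. Of 128 recomputed medians of neighbouring lists, 107 moved by less than the spread between replicates and 21 by more. The largest shift was that of PPAR-responsive genes, -0.03 with all libraries and -0.15 without control replicate 2. Unknown depth leaves the precision of low genes such as Hsd3b6, Awat2 and Scd3 to the spread of 3 libraries per group.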
